A study of Mus musculus with 6 samples.

Results

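The 6 genes followed here code for proteins of proton and ammonia transport in tubule cells. Atp6v1g3 and Atp6v1c2 code for subunits of the vacuolar proton pump (V-ATPase), Atp4a and Atp12a for the catalytic subunits of the gastric and non-gastric proton-potassium pumps, and Rhcg and Rhbg for ammonia channels. They were taken by name from a deposited table of 456 genes, and all 6 were found. Their counts were summed per library and per cell class of the authors' annotation, and furosemide was set against vehicle.

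Kidneys came from wild-type (WT) C57BL/6J mice aged 16 weeks. One group had furosemide at 70 mg/kg body weight for 1 week, and the other had vehicle. Both were fed gel food that held sodium at 104 µmol per kcal. Single cells were captured on BD Rhapsody beads, and 22154 cells in 15 classes were deposited, from 3 furosemide libraries (numbered 2, 4 and 6) and 3 vehicle libraries (numbered 1, 3 and 5). Nothing in the labels says that the libraries of a group came from separate animals, so p-values measure only the spread between these libraries.

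The classes named here are the thick ascending limb (TAL), the distal convoluted tubule (DCT), DCT2, the connecting tubule (CNT), principal cells of the cortical collecting duct (CCD principal), the class labelled OMCD principal, and type A and type B intercalated cells (AIC and BIC). Total counts ran between 4928550 and 7635509 in furosemide libraries and between 4819988 and 6315516 in vehicle libraries. Cell labels shared by more than 1 library numbered 196, held by 392 cells. Calls given below were the same without those cells.

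Intercalated cells secrete acid or base. They carry the V-ATPase in the plasma membrane, and its V1 sector, to which both subunits belong, hydrolyses ATP in the cytosol. Proton-potassium pumps exchange cell protons for luminal potassium. Ammonia crosses the apical and basolateral membrane of tubule cells through Rhcg and the basolateral membrane through Rhbg. In the urine, ammonia traps secreted protons as ammonium. Furosemide blocks the sodium-potassium-chloride cotransporter of the TAL, so that more salt reaches the DCT, CNT and collecting duct.

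The promoters of Atp6v1c2, Atp4a and Rhcg are shown because the comparisons below dwell on these 3 genes. By the main test, Atp6v1c2 was called in DCT and Atp4a in a sum of 3 classes, while Rhcg was not called. Each runs 250 bases before to 50 bases after the start site, 5′ to 3′ on the gene's strand, from RefSeq on GRCm38.p6. They lie at chr12:17324681-17324980 (minus strand, Atp6v1c2), chr7:30711959-30712258 (plus strand, Atp4a) and chr7:79617608-79617907 (minus strand, Rhcg). The single capital marks the first transcribed base at the start site used, and the run of capitals in Rhcg a match to TGTTCT. For Atp6v1c2 the stretch lies inside the annotated gene, which spans 17284721 to 17325386 on chromosome 12.
Atp6v1c2: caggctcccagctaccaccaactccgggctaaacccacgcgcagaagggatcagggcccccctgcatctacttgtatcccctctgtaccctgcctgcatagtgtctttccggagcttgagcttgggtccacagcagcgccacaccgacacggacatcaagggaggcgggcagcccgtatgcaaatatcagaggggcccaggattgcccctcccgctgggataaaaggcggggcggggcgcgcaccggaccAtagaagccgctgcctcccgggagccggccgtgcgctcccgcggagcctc
Atp4a: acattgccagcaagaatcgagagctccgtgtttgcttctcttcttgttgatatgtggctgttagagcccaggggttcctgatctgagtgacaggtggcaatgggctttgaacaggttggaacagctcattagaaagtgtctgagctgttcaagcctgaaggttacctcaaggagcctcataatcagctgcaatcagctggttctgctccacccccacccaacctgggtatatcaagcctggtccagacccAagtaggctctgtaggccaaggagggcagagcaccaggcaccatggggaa
Rhcg: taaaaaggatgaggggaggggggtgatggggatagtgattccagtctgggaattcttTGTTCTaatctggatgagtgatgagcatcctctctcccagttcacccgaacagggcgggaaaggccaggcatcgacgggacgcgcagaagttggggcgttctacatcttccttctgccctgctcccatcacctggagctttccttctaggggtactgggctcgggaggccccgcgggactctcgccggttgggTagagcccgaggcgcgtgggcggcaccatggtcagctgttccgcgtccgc
RefSeq held a promoter for 4 of the 6 genes, these and Atp6v1g3. Both strands were searched for TGTTCT, the half-site of the glucocorticoid and mineralocorticoid receptors, and for TGTTTA, the forkhead core. TGTTCT occurred once, in Rhcg at position -193 from the start site, without overlap with the other motif, and 19.0% of 32851 RefSeq promoters of that length hold it. TGTTTA occurred in none of the 4, and 13.4% of all promoters hold it. A match is a run of letters and not a shown binding site.

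Levels are CPM, counts scaled to the same panel total in each library and class, either as plain CPM or scaled further by the trimmed mean of M-values (TMM-scaled CPM). By plain CPM averaged over all 6 libraries, the V-ATPase subunits were highest in BIC, AIC and OMCD principal. Atp6v1g3, the G3 subunit, stood at 80689 ± 10598 in BIC, 53210 ± 6169 in AIC and 29136 ± 4153 in OMCD principal (SD, n = 6), and the ranges of these classes did not overlap. CCD principal came next at 1331 ± 591. Every one of the 626 BIC, 340 AIC and 373 OMCD principal cells held a count of Atp6v1g3 and of Atp6v1c2. Atp6v1c2, the C2 subunit, kept the same order, with 26511 ± 1660 in BIC, 15007 ± 2655 in AIC and 10949 ± 1058 in OMCD principal. AIC was above OMCD principal in all 6 libraries, although their ranges overlapped.

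The class labelled OMCD principal carried markers of type A intercalated cells beside those of principal cells. Slc4a1 and Aqp6, which mark type A cells, had counts in 87.2% and 87.8% of its furosemide cells and in 92.0% and 92.9% of its vehicle cells. Its list of principal cell markers summed to between 49484 and 56022 plain CPM in furosemide and between 51893 and 58414 in vehicle libraries. That list lay between 86612 and 91224 in furosemide and between 95437 and 106568 in vehicle libraries of CCD principal, and between 9609 and 11719 in furosemide and between 9492 and 11038 in vehicle libraries of AIC. Aqp2, the water channel of principal cells, had a count in 17.6% of furosemide and 18.2% of vehicle OMCD principal cells, and in 33.8% of furosemide and 29.2% of vehicle CCD principal cells. In a second clustering by the authors, 132 OMCD principal cells shared the cluster AIC sub2 with 303 cells of the class AIC. The other 241 were in a cluster named AIC, which held no cell of the class AIC. The class is given here by its label, and the sum of AIC, BIC and OMCD principal is called the intercalated sum.

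**Figure D1:**
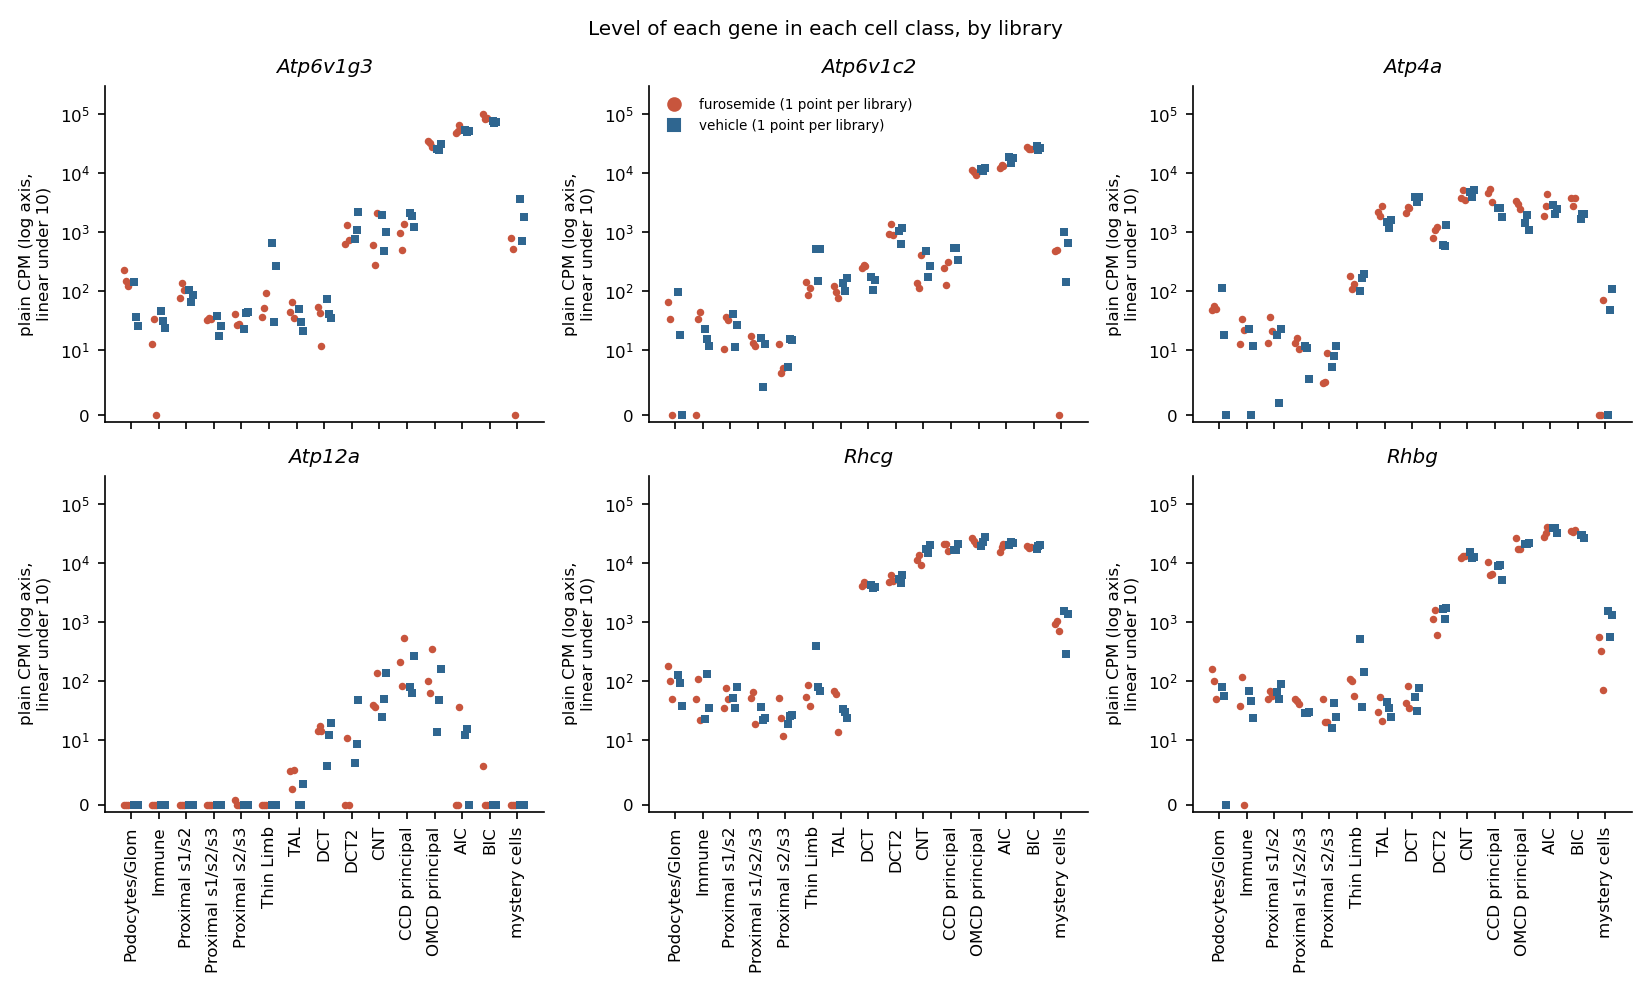
Plain CPM of each gene (vertical axis, logarithmic above 10 and linear below) in each of the 15 cell classes, with 1 point per library, furosemide libraries as red circles left of vehicle libraries as blue squares. Atp6v1g3 and Atp6v1c2 peak in BIC, AIC and OMCD principal, Rhcg and Rhbg spread to CNT and CCD principal, and Atp4a is spread over the TAL and all later classes.

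In CCD principal and CNT, most counts of the V-ATPase genes came from few cells. In CCD principal, 42 of 1225 cells (3.43%) held 20 or more Atp6v1g3 counts, and these cells held 82.5% of the class's Atp6v1g3 counts and 68.5% of its Atp6v1c2 counts. In CNT, 28 cells (2.51%) held 81.3% of the Atp6v1g3 counts. In DCT2 the counts of Atp6v1c2 were spread over more cells, and it came next after those 3 classes at 996 ± 257 plain CPM. In DCT2, 68.2% of cells had an Atp6v1c2 count against 14.2% with an Atp6v1g3 count, and the 16 cells with 20 or more Atp6v1g3 counts held 18.1% of the Atp6v1c2 counts. In DCT no cell reached 20 Atp6v1g3 counts, and the most in any DCT cell was 8.

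Atp4a was spread over many classes, with no dominant one. Its plain CPM was 4417 ± 758 in CNT, 3330 ± 1371 in CCD principal, 3058 ± 750.1 in DCT, 2729 ± 923 in AIC, 2659 ± 939 in BIC, 2213 ± 889 in OMCD principal, 1826 ± 561 in TAL and 930 ± 319 in DCT2 (SD, n = 6). Each neighbour in this order overlapped with the next. The step below DCT2 was clear, with Thin Limb at 145 ± 37.1 and no overlap. TAL held 26.7% of all Atp4a counts, CNT 23.3% and DCT 19.2%.

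Atp12a, the non-gastric pump, was scarce. CCD principal held 51.0% of its counts, CNT 24.1% and OMCD principal 13.4%, and 13.1% of CCD principal cells had one. BIC cells gave 1 Atp12a count in all.

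The ammonia channels were high in CNT and CCD principal as well as in intercalated cells. Rhcg stood at 23533 ± 3171 plain CPM in OMCD principal, 19777 ± 2609 in AIC, 18815 ± 1031 in BIC, 18658 ± 2334 in CCD principal and 14441 ± 4028 in CNT, each overlapping with the next. DCT2 followed at 5341 ± 758 and DCT at 4156 ± 374. Rhbg was at 35114 ± 5438 in AIC, 31611 ± 3692 in BIC, 20895 ± 3462 in OMCD principal, 12927 ± 1139 in CNT and 7692 ± 2000.0 in CCD principal, with DCT2 next at 1295 ± 437. For Rhbg, AIC overlapped with BIC and BIC with OMCD principal, while OMCD principal, CNT, CCD principal and DCT2 stood apart from one another.

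Rhcg was found mostly without Rhbg in the DCT. Of all DCT cells, 91.0% had Rhcg counts alone and 5.26% had both. DCT2 cells were mixed, with 52.2% holding Rhcg alone and 46.8% both. CNT cells held both in 99.7% of cells. In Proximal s2/s3 cells, which should lack these channels, 4.47% ± 2.77 of furosemide cells and 3.23% ± 0.753 of vehicle cells had an Rhcg count, at a median depth of 1472 counts per cell against 1329 in DCT. For Rhbg those shares were 3.94% ± 1.04 of furosemide and 2.91% ± 0.188 of vehicle cells. In DCT, 5.73% ± 2.31 of furosemide and 4.22% ± 1.23 of vehicle cells had an Rhbg count, too near to this background to be read as expression.

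**Figure D2:**
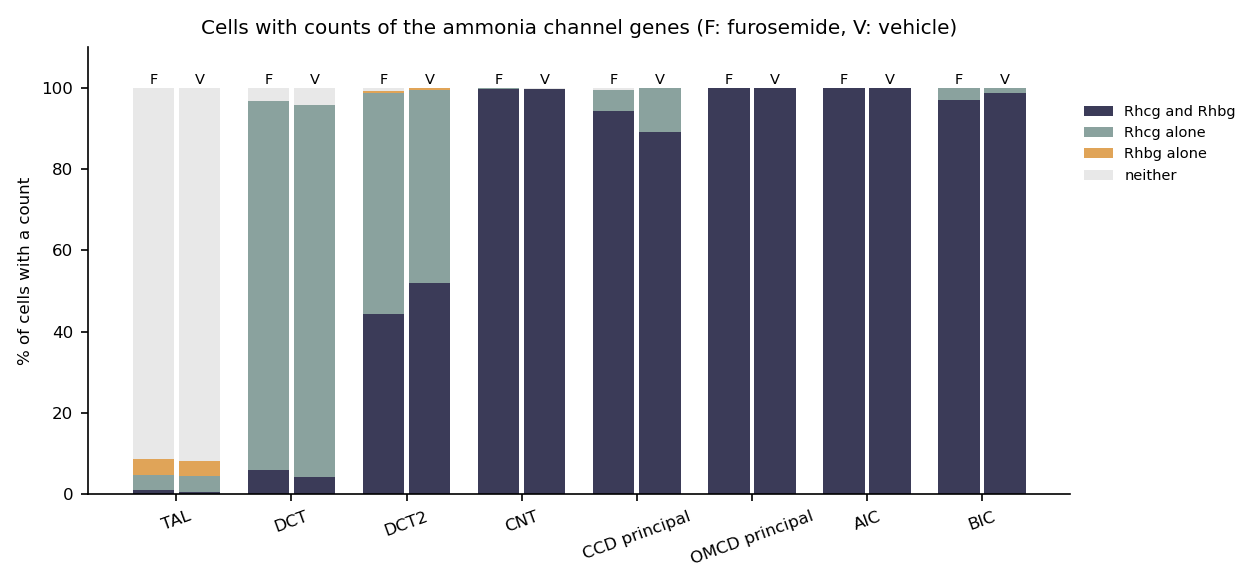
Percent of cells (vertical axis) with counts of both ammonia channel genes, of Rhcg alone, of Rhbg alone or of neither, in 8 classes, over all cells of a treatment, with furosemide (F) left of vehicle (V). Rhcg alone fills most of the DCT bars, DCT2 is divided, and from CNT on nearly all cells hold both.

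By likeness over the 15 class means (Pearson's r of log2 of CPM + 1, a description), the genes nearest to Atp6v1g3 were Guca2a (0.97), Slc4a9 (0.97) and Cyp1a1 (0.95). Atp6v1c2 was nearest to Slc4a9 (0.97), Atp6v1g3 (0.95) and Cyp1a1 (0.93). Genes near to Atp4a included Tmem213 (0.96) and Scnn1a (0.95). The nearest were for Atp12a Kcne1 (0.84), Scnn1g (0.83) and Kcnj1 (0.83), for Rhcg Scnn1b (0.96), Scnn1g (0.91) and Rhbg (0.91), and for Rhbg Guca2a (0.95), Atp6v1g3 (0.95) and Rhcg (0.91). All of these values share the same libraries and classes.

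Furosemide was then set against vehicle within each class. Of 90 pairs of gene and class, 64 passed the low-count filter and were tested, and 1 was called at an adjusted p under 0.05 by edgeR's quasi-likelihood test. That was Atp6v1c2 in DCT, where 4.73% of 275 genes were called. DESeq2 called 8 pairs and limma-voom 1. Unadjusted p was under 0.05 in 16 of the 64 pairs. Over all genes and classes, 1.45% of 3724 pairs were called and 11.9% had an unadjusted p under 0.05. By class, edgeR called 4.73% of genes in TAL, 1.42% in DCT2, 5.08% in CNT, 0.408% in BIC and 0% in CCD principal, OMCD principal and AIC.

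Atp6v1c2 rose in DCT. Its TMM-scaled CPM was 257, 258 and 293 in furosemide libraries 2, 4 and 6, against 161, 107 and 139 in vehicle libraries 1, 3 and 5. Every furosemide library was above every vehicle library, as for 19.6% of genes in DCT in either direction. The log2 difference was 0.98 ± 0.20 (SE), with an adjusted p of 0.0227 by edgeR. Counts behind it were 431 in furosemide and 169 in vehicle cells. The call was lost without furosemide library 6 or without vehicle library 1, 3 or 5, at log2 differences of 0.85 to 1.13 over all 6 omissions, and with cells thinned to 500 counts (0.80, adjusted p = 0.119 by edgeR).

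More DCT cells held an Atp6v1c2 count after furosemide, 24.9% ± 0.987 against 15.6% ± 2.31 under vehicle (SD, n = 3 each, exact permutation p = 0.1, two-sided). With 3 libraries against 3 that test cannot go below 0.1. In cells thinned to 500 counts, the shares were 10.9% ± 1.09 after furosemide and 6.94% ± 0.823 under vehicle, again without overlap. Of the 48 pairs of gene and class compared for shares, 11 were without overlap as deposited and 9 when thinned. These shares come from the same counts as the CPM values. Proximal s2/s3 cells, as background, were at 1.51% ± 0.354 after furosemide and 1.57% ± 0.393 under vehicle. The median depth was 1334 counts in DCT cells after furosemide and 1318 under vehicle, and in Proximal s2/s3 cells 1532 after furosemide and 1404 under vehicle.

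Both DCT clusters of the second clustering showed the difference. DCT sub1 held 1648 and DCT sub2 held 241 of the 1901 DCT cells. They divide the cells already compared and are no separate test. In DCT sub1, plain CPM of Atp6v1c2 was 253, 283 and 262 in furosemide libraries, against 169, 112 and 156 in vehicle libraries. In the smaller DCT sub2 it was 160.5, 215 and 278 in furosemide libraries, against 132, 43.3 and 106 in vehicle libraries. The groups did not overlap in either cluster.

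Counts of the intercalated markers measured were low in DCT sums. Of 9 type A markers 3 were measured (Slc4a1, Aqp6 and Insrr), and of 7 type B markers 3 (Slc26a4, Slc4a9 and Insrr). The type A sum in plain CPM ran from 18.4 to 35.6 in furosemide and from 15.03 to 44.0 in vehicle libraries. The type B sum ran from 29.9 to 34.2 in furosemide and from 30.1 to 67.9 in vehicle libraries. Only 1 DCT cell, in vehicle library 1, held 5 or more intercalated marker counts, and without it the log2 difference was 1.01. Principal cell markers summed to between 11727 and 14011 in furosemide and between 12145 and 14993 in vehicle libraries, and CNT markers to between 45113 and 69559 in furosemide against between 34119 and 46370 in vehicle libraries. TAL markers summed to between 140503 and 193783 in furosemide and between 153702 and 216826 in vehicle libraries, and 1 of 5, Slc12a1, the furosemide target, fell in DCT sums. Proximal markers stayed at or below 184, podocyte and glomerular markers at or below 38.4 and immune markers at or below 94.1 in every library. What part these markers have in the result was not tested.

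**Figure D3:**
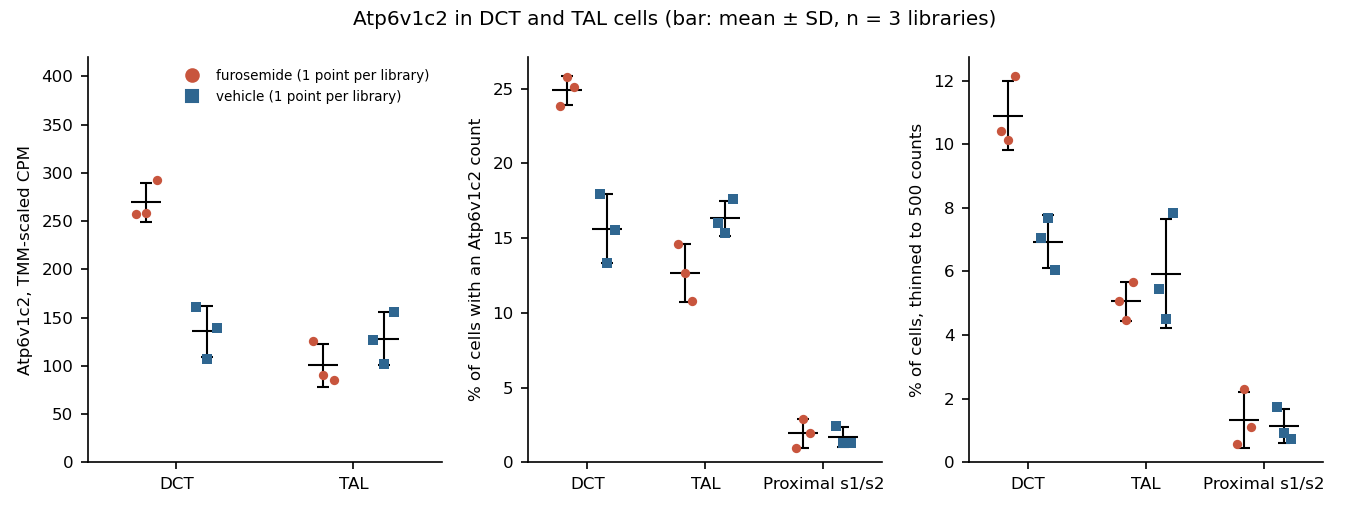
Atp6v1c2 in DCT and TAL cells as TMM-scaled CPM (left), and as percent of cells with a count as deposited (middle) and thinned to 500 counts (right), with Proximal s1/s2 cells as background. Points are libraries, bars the mean ± SD of 3, and furosemide stands left of vehicle; in DCT the furosemide libraries lie above all vehicle libraries in each panel.

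In the other classes edgeR did not call Atp6v1c2. In TAL its TMM-scaled CPM was 126, 90.1 and 85.1 in furosemide libraries, against 127, 102 and 156 in vehicle libraries, a log2 difference of -0.36 ± 0.24, between -0.51 and -0.14 with each library left out. DCT2, the class next to DCT, had 900.3, 1141 and 962 in furosemide libraries, against 1082, 719 and 1076 in vehicle libraries. Its log2 difference there was 0.06 ± 0.21.

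In intercalated cells, where the gene is highest, AIC gave 13851, 13964 and 13422 TMM-scaled CPM in furosemide libraries, against 17408, 14546 and 16805 in vehicle libraries. The AIC libraries were apart, as for 14.2% of genes there, but the log2 difference of -0.24 ± 0.14 had an adjusted p of 0.763 by edgeR. It was 0.05 ± 0.11 in BIC and -0.12 ± 0.14 in OMCD principal.

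In CCD principal neither V-ATPase gene was called by edgeR. Atp6v1c2 had 245, 133 and 303 TMM-scaled CPM in furosemide libraries, against 517, 542 and 326 in vehicle libraries (-1.05 ± 0.34, adjusted p = 0.197 by edgeR). Atp6v1g3 had 961, 520.2 and 1341 there in furosemide libraries, against 2044, 1868 and 1194 in vehicle libraries (-0.87 ± 0.36, adjusted p = 0.264 by edgeR). The Atp6v1c2 libraries were apart, as for 23.1% of genes there, and those of Atp6v1g3 overlapped. Most counts of both genes came from the 42 cells described above. Markers of intercalated cells were lower there too, the type A list at 357 to 761 plain CPM in furosemide against 967 to 1123 in vehicle libraries, and the type B list at 104 to 246 in furosemide against 325 to 479 in vehicle libraries. Without cells that held 5 or more intercalated marker counts, the log2 difference went from -1.05 to -1.27 for Atp6v1c2. For Atp6v1g3 it went from -0.87 to -0.53. What part the 42 cells have in either difference was not tested.

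The effect of furosemide on Atp4a, the gastric pump's catalytic subunit, differed between TAL and DCT. In TAL its TMM-scaled CPM was 2276, 1756 and 3061 in furosemide libraries, against 1373, 1178 and 1490.4 in vehicle libraries. In DCT it was 2255, 2516 and 2765 in furosemide libraries, against 3712, 3372 and 3581 in vehicle libraries. Furosemide libraries were all higher in TAL, where 23.7% of genes stood apart between the groups, and all lower in DCT, where 19.6% did. Neither class passed alone, with log2 differences of 0.81 ± 0.23 in TAL (adjusted p = 0.107 by edgeR) and -0.50 ± 0.13 in DCT (adjusted p = 0.0582). DESeq2 called both, at an adjusted p of 0.0141 in TAL and 0.0112 in DCT.

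The difference between the treatment effects was tested with the library as a block. For Atp4a, the log2 effect in DCT minus that in TAL was -1.36 ± 0.19, with an adjusted p of 0.00213 by edgeR. The call held with each of the 6 libraries left out in turn, at -1.53 to -1.26. For Atp6v1c2 the same difference was 1.27 ± 0.27 (adjusted p = 0.0161 by edgeR), and it was lost only without vehicle library 5 (1.10, adjusted p = 0.0550). These were 2 of 5 members tested, where 9.65% of 311 genes were called.

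The shares of cells with Atp4a, drawn from the same counts, were apart in TAL as well, as in 11 of the 48 pairs compared for shares. Atp4a had a count in 70.5% ± 4.39 of TAL cells after furosemide and in 48.6% ± 0.841 under vehicle (SD, n = 3 each, exact permutation p = 0.1). In cells thinned to 500 counts the shares were 48.9% ± 6.88 after furosemide and 32.4% ± 0.935 under vehicle. In DCT they were 83.7% ± 2.46 after furosemide and 85.8% ± 1.78 under vehicle as deposited, and 61.1% ± 4.10 after furosemide and 69.7% ± 1.17 under vehicle when thinned. Proximal s2/s3 cells stood at 1.20% ± 0.261 after furosemide and 1.46% ± 0.0872 under vehicle.

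Marker lists of other segments were measured in the same TAL sums. The DCT list summed to between 3666 and 7091 plain CPM in furosemide and between 2856 and 3166 in vehicle libraries, and none of its 3 tested genes passed by edgeR. The CNT list summed to between 1155 and 1471 in furosemide and between 1104 and 1122 in vehicle libraries. Of that list Calb1, a cytosolic calcium binder, rose in TAL sums by 1.66 ± 0.19 on the log2 scale (adjusted p = 0.00701 by edgeR), and it also rose in podocyte and glomerular cells (2.81 ± 0.38) and over whole libraries (1.57 ± 0.21). The principal cell list overlapped, between 8676 and 9714 in furosemide and between 7673 and 8774 in vehicle libraries. The TAL list ran between 468407 and 524504 in furosemide and between 413391 and 480653 in vehicle libraries, and Cldn16, a tight junction gene of the TAL, rose (1.06 ± 0.20, adjusted p = 0.0426 by edgeR). Rhcg, which DCT and CNT cells carry, was at 68.5, 57.3 and 15.2 TMM-scaled CPM in furosemide TAL sums, against 30.5, 30.3 and 22.1 in vehicle sums. Type A and type B lists stayed at or below 44.9 in every library, proximal markers at or below 153, podocyte and glomerular markers at or below 56.9 and immune markers at or below 111. The part of these markers in the Atp4a difference was not tested.

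**Figure D4:**
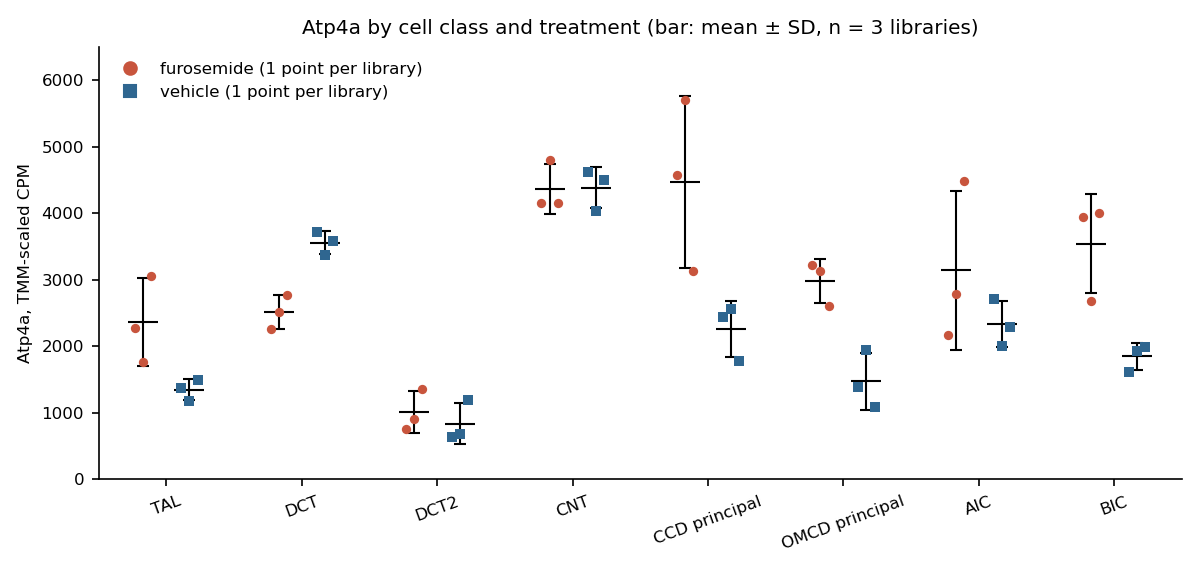
Atp4a in 8 classes as TMM-scaled CPM (vertical axis), with 1 point per library, the mean ± SD of 3 as a bar, and furosemide left of vehicle. Furosemide libraries lie above vehicle in TAL, CCD principal, OMCD principal and BIC, below in DCT, and overlap in DCT2, CNT and AIC.

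Within DCT, Atp4a was lower after furosemide in both clusters, which divide the same cells. Plain CPM in DCT sub1 was 2041, 2684 and 2406 in furosemide libraries, against 3828, 3099 and 3716 in vehicle libraries. In DCT sub2 it was 2835, 2964 and 3131 in furosemide libraries, against 5690.3, 4615 and 5203 in vehicle libraries. With both clusters in place of the class, the log2 difference was -0.53 and was called (adjusted p = 0.0442 by edgeR).

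In DCT2 and CNT the groups overlapped. In CNT, Atp4a had 4156, 4804 and 4149.8 TMM-scaled CPM in furosemide libraries, against 4619, 4036 and 4504 in vehicle libraries, a log2 difference of -0.0046 ± 0.13. Its sign turned with the scaling (0.0093 with relative log expression size factors), so no direction is given. In DCT2 the log2 difference was 0.29 ± 0.30, between 0.0076 and 0.65 with each library left out. The effect in DCT minus that in CNT was -0.66 ± 0.14 (adjusted p = 0.0862 by edgeR), where 0.997% of 301 genes were called. In DCT minus AIC it was -0.87 ± 0.24 (adjusted p = 0.241 by edgeR).

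In the collecting duct Atp4a lay higher in furosemide libraries without passing the test. CCD principal had 4581, 5709 and 3129 TMM-scaled CPM in furosemide libraries, against 2436, 2553 and 1779.5 in vehicle libraries (log2 difference 0.99 ± 0.25, adjusted p = 0.101 by edgeR). OMCD principal had 3222, 3128 and 2606 in furosemide libraries, against 1384, 1938 and 1087 in vehicle libraries (1.02 ± 0.24, adjusted p = 0.204). BIC had 3949.8, 2683 and 3999 in furosemide libraries, against 1612, 1933 and 1993 in vehicle libraries (0.94 ± 0.20, adjusted p = 0.0647). The groups did not overlap in any of the 3, where the libraries stood apart for 23.1%, 16.4% and 20.8% of genes. DESeq2 called Atp4a in each.

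Marker lists were measured in the same 3 classes. In CCD principal the CNT list ran between 14367 and 24250 plain CPM in furosemide and between 5848 and 10759 in vehicle libraries, and the principal cell list between 86612 and 91224 in furosemide and between 95437 and 106568 in vehicle libraries. In BIC the CNT list overlapped, between 9175 and 21066 in furosemide and between 15538 and 24593 in vehicle libraries, as did the type A list, between 14780 and 18601 in furosemide and between 15495 and 22950 in vehicle libraries. Insrr, which is on both intercalated lists, made up most of that type A sum, at 11132 ± 1999 in furosemide and 10849 ± 978 in vehicle libraries (SD, n = 3 each). Slc4a1 averaged 1686 ± 794 in furosemide and 3349 ± 918 in vehicle libraries. Aqp6 averaged 3280 ± 182 in furosemide and 4478 ± 2275 in vehicle libraries. In OMCD principal the CNT list overlapped, between 4979 and 12008 in furosemide and between 3631 and 8334 in vehicle libraries. The type A list there lay between 43814 and 45290 in furosemide and between 48754 and 71605 in vehicle libraries, without overlap. No gene of these lists was called by edgeR in these 3 classes, and their part in the Atp4a values was not tested.

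AIC showed a smaller and less even difference, with 2164, 2788 and 4478 TMM-scaled CPM in furosemide libraries, against 2704, 2007 and 2288 in vehicle libraries (0.43 ± 0.30, adjusted p = 0.763 by edgeR). It was 0.07 without furosemide library 6 and 0.27 without vehicle library 3. The effect in AIC minus that in OMCD principal was -0.66 ± 0.40 (adjusted p = 0.713 by edgeR), where 0.391% of 256 genes were called. In AIC the CNT marker list overlapped, between 116927 and 222856 plain CPM in furosemide and between 103804 and 129843 in vehicle libraries. Of the 340 AIC cells, 34 were in the cluster CNT sub1 of the second clustering. What part these cells and markers have in the AIC values was not tested. Summed over AIC, BIC and OMCD principal, Atp4a was 3377, 2796 and 3674 in furosemide libraries, against 1800.2, 1921 and 1714 in vehicle libraries. It rose in this sum by 0.86 ± 0.13 on the log2 scale (adjusted p = 0.0365 by edgeR), where 1% of 299 genes were called and 20.7% stood apart between the groups. The call was lost without furosemide library 2 or 6 or without any 1 vehicle library, at log2 differences of 0.81 to 0.96 over all 6 omissions.

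In the second clustering, the cluster BIC held 609 of the 626 BIC cells, so it is no separate test. Atp4a there had 3778, 2477 and 3887 plain CPM in furosemide libraries, against 1691, 2001 and 1994 in vehicle libraries. OMCD principal cells in the cluster AIC had 4172, 3163 and 2389 in furosemide libraries, against 1616, 1896 and 1237 in vehicle libraries. Those in AIC sub2 overlapped, at 664, 1184 and 2943 in furosemide libraries, against 751, 2251 and 777 in vehicle libraries.

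In the intercalated sum the CNT marker list ran between 32508 and 54370 plain CPM in furosemide and between 28436 and 32075 in vehicle libraries, and 1 of its 3 tested genes, Calb1, rose (1.44 ± 0.16 on the log2 scale, adjusted p = 0.0125 by edgeR). The type A list ran between 26446 and 34025 in furosemide and between 36194 and 43250 in vehicle libraries, and the type B list between 35515 and 45643 in furosemide and between 36499 and 40204 in vehicle libraries. The principal cell list ran between 16833 and 20067 in furosemide and between 20640 and 25461 in vehicle libraries. The DCT list ran between 3587 and 4774 in furosemide and between 3253 and 4877 in vehicle libraries, and the TAL list between 2741 and 5238 in furosemide and between 2880 and 4871 in vehicle libraries. Immune markers ran between 28.3 and 603 in furosemide and between 120.3 and 428 in vehicle libraries, while proximal markers stayed at or below 238 and podocyte and glomerular markers at or below 21.7. The part of these markers was not tested.

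Shares of cells with an Atp4a count were apart in the same classes. They were 84.8% ± 3.56 of BIC cells after furosemide and 69.9% ± 4.18 under vehicle, 58.6% ± 2.68 of OMCD principal cells after furosemide and 46.3% ± 1.39 under vehicle, and 71.5% ± 4.17 of CCD principal cells after furosemide and 56.6% ± 5.85 under vehicle (exact permutation p = 0.1 each). In thinned cells BIC and CCD principal stayed apart, while OMCD principal overlapped. Of the 48 pairs of gene and class compared for shares, 11 were apart as deposited and 9 when thinned. Adjusted over these 48 pairs, the smallest exact permutation p was 0.436 as deposited and 0.533 when thinned.

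**Figure D5:**
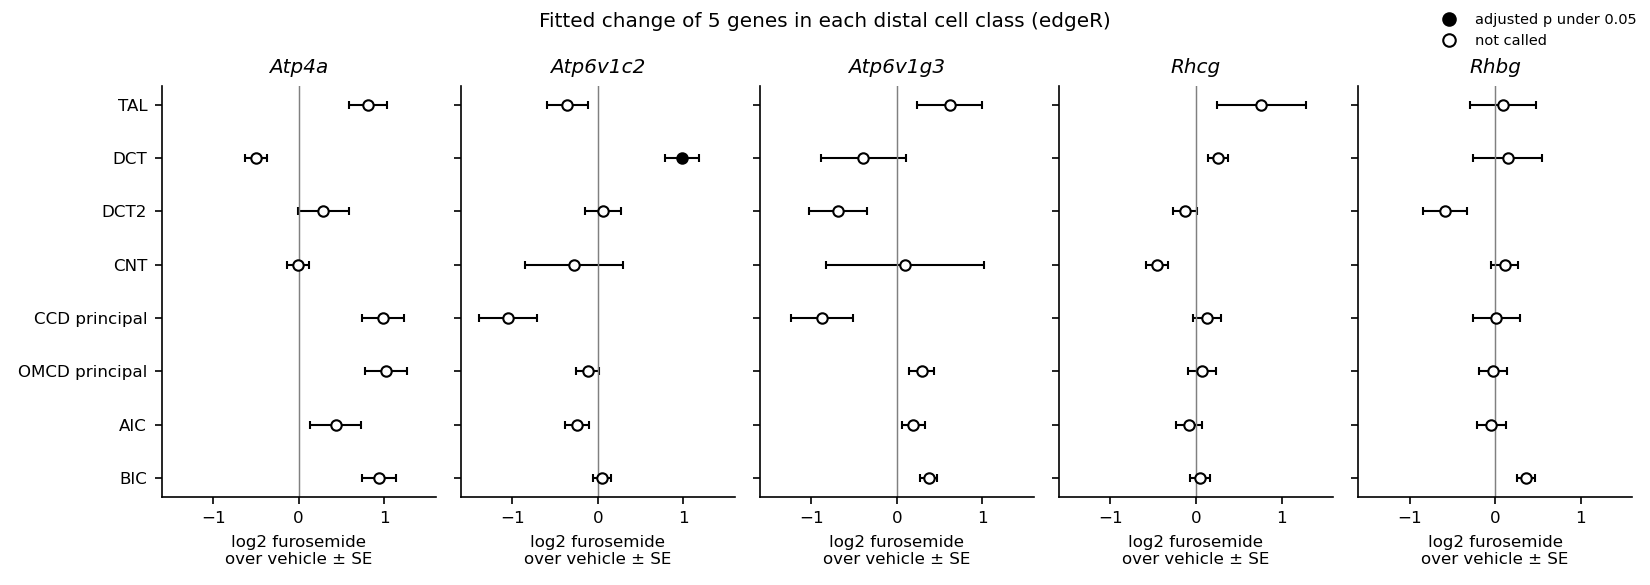
Log2 difference of furosemide over vehicle from edgeR (horizontal axis, point ± SE) for 5 genes in 8 classes. The filled point, Atp6v1c2 in DCT at 0.98, is the only pair called in these classes; Atp4a lies below 0 in DCT and near 1 in BIC, CCD principal and OMCD principal.

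Atp6v1g3 was higher in every furosemide library of BIC, at 103283, 81474 and 89839.6 TMM-scaled CPM, against 71727, 68342 and 72419 in vehicle libraries. The libraries stood apart, as for 20.8% of genes in BIC, and the log2 difference of 0.37 ± 0.10 did not pass (adjusted p = 0.126 by edgeR). In AIC it had 53924, 52142 and 65246 in furosemide libraries, against 51649, 50323 and 48126 in vehicle libraries (0.19 ± 0.14), and in OMCD principal the log2 difference was 0.29 ± 0.15. Over the intercalated sum it was 0.36 ± 0.11 (adjusted p = 0.180 by edgeR), and DESeq2 called it. The median BIC cell held 149.5 Atp6v1g3 counts after furosemide and 103 under vehicle, at median depths of 1679.5 counts of all genes after furosemide and 1540 under vehicle.

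Rhbg, the basolateral ammonia channel, was also higher in every furosemide library of BIC, with 36123, 32918 and 38162 TMM-scaled CPM in furosemide libraries, against 28629.7, 28405 and 26462 in vehicle libraries. The groups did not overlap, as for 20.8% of genes in BIC, and the log2 difference was 0.36 ± 0.10 (adjusted p = 0.130 by edgeR). In AIC they overlapped, and it was -0.04 ± 0.17. The effect in AIC minus that in BIC was -0.32 ± 0.10 for Rhbg (adjusted p = 0.429 by edgeR), where 0.389% of 257 genes were called. The median log2 difference of the 5 members tested in BIC was that of Rhbg itself, with Rhcg and Atp6v1c2 both at 0.05. None of the 5 was called, and the median over all 245 genes tested there was 0.01. In other classes the median of the members tested ran from -1.69 in Thin Limb to 0.63 in Proximal s1/s2/s3.

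In DCT2, Rhbg had 1085, 1338 and 647 TMM-scaled CPM in furosemide libraries, against 1726, 1296 and 1585 in vehicle libraries (-0.58 ± 0.26, adjusted p = 0.422 by edgeR). It was -0.35 without furosemide library 6. In the cluster DCT sub3, which held 452 of the 485 DCT2 cells, plain CPM was 800.2, 882 and 298 in furosemide libraries, against 1044, 452 and 825 in vehicle libraries, and the groups overlapped. Over whole libraries it was 3926, 3192 and 3619 after furosemide, against 3086, 2786 and 2239 under vehicle (0.40 ± 0.16, adjusted p = 0.287 by edgeR), where 4.46% of 426 genes were called. A whole-library sum by itself does not separate more cells of a class from more RNA per cell. By class, the log2 difference of Rhbg was 0.11 ± 0.16 in CNT and 0.01 ± 0.28 in CCD principal. CNT cells numbered 214, 333 and 169 in furosemide libraries, against 145, 138 and 117 in vehicle libraries. The part of cell numbers in the whole-library difference was not tested.

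Rhcg, which passes ammonia through the apical membrane, was lower in every furosemide library of CNT. TMM-scaled CPM was 12212, 12636 and 11017 in furosemide libraries, against 16589, 15127 and 17549 in vehicle libraries. The groups did not overlap, as for 27.3% of genes in CNT, and the log2 difference of -0.46 ± 0.13 did not pass (adjusted p = 0.0832 by edgeR), although DESeq2 called it. In the cluster CNT sub2, plain CPM was 11812, 14489 and 9327 in furosemide libraries, against 17896, 15671 and 21102 in vehicle libraries. In CNT sub3 it was 5568, 6041 and 8983 in furosemide libraries, against 13639, 9620 and 13245 in vehicle libraries. Both clusters, which divide most of the same CNT cells, were apart in the same direction.

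Other markers also differed in CNT sums. Fxyd4 of the principal cell list fell (-0.70 ± 0.15 on the log2 scale, adjusted p = 0.0389 by edgeR), and that list ran between 22945 and 32112 plain CPM in furosemide and between 29111 and 34158 in vehicle libraries. Slc12a3, the DCT's sodium-chloride cotransporter, rose (2.28 ± 0.36), and the DCT list ran between 4702 and 4966 in furosemide and between 1960 and 4060 in vehicle libraries. Calb1 (1.82 ± 0.27) and Slc8a1 (1.80 ± 0.31) of the CNT list rose, while Slc12a1 of the TAL list fell (-1.52 ± 0.33). Without cells that held 5 or more intercalated marker counts, the Rhcg difference was -0.47. The part of the other markers in it was not tested.

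In DCT, Rhcg was slightly higher in each furosemide library, at 4319, 4510.2 and 4771 TMM-scaled CPM, against 3914, 3824 and 3651 in vehicle libraries. The groups were apart, as for 19.6% of genes in DCT, and the log2 difference was 0.26 ± 0.12 (adjusted p = 0.381 by edgeR). The effect in DCT minus that in CNT was 0.55 ± 0.15 (adjusted p = 0.167). In AIC, BIC, OMCD principal and CCD principal the groups overlapped, with log2 differences between -0.08 and 0.13.

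Atp12a was too scarce for a firm comparison. In CCD principal it had 206, 87.9 and 519 TMM-scaled CPM in furosemide libraries, against 75.2, 62.6 and 260.4 in vehicle libraries, from 201 counts in furosemide and 93 in vehicle cells. Library 6 was the highest of the furosemide and library 5 of the vehicle libraries, and the groups overlapped. The log2 difference was 1.05 ± 0.79 (adjusted p = 0.589 by edgeR), 0.17 without furosemide library 6 and 1.99 without vehicle library 5. Over whole libraries it was 1.12 ± 0.63 (adjusted p = 0.457).

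Other genes of acid and base transport were counted from a list of 40, of which 14 were in the panel. None of 108 pairs of list gene and class was called by edgeR in either direction, DESeq2 called 2 and limma-voom 0. An unadjusted p under 0.05 was found in 13 of the 108 pairs (12.0%), a share like the 11.9% over all genes and classes. By class these were 4 of 12 in CCD principal, where 18.9% of all genes had such a p, and 2 of 10 in BIC (12.7%). There were 2 of 10 in OMCD principal (12.7%), 2 of 6 in DCT2 (11.4%) and 1 of 12 in CNT (21.5%). The others were 1 of 6 in Thin Limb (15%) and 1 of 3 in podocyte and glomerular cells (6.28%). The anion exchanger Slc4a1, the basolateral bicarbonate exit of type A cells, had a log2 difference of -0.52 ± 0.19 in OMCD principal (adjusted p = 0.351 by edgeR). It was picked after its values were seen.

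The shares of intercalated classes among all cells were compared over libraries. AIC made up 1.61% ± 0.472 of cells after furosemide and 1.42% ± 0.326 under vehicle, and BIC 2.74% ± 0.421 after furosemide and 2.95% ± 0.329 under vehicle (exact permutation p = 0.6 each, n = 3 each). OMCD principal made up 1.36% ± 0.241 after furosemide and 2.05% ± 0.319 under vehicle (exact permutation p = 0.1). With TAL cells left out of the total, BIC made up 3.15% ± 0.416 after furosemide and 3.86% ± 0.439 under vehicle, without overlap, and OMCD principal 1.57% ± 0.249 after furosemide and 2.69% ± 0.455 under vehicle (exact permutation p = 0.1 each).

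The V-ATPase genes also differed between libraries in Thin Limb. Atp6v1g3 had 32.8, 45.7 and 90.3 TMM-scaled CPM in furosemide libraries, against 697, 33.2 and 281 in vehicle libraries. Atp6v1c2 had 131, 76.2 and 108 there in furosemide libraries, against 552, 159 and 555 in vehicle libraries, and the groups did not overlap, as for 20.3% of genes. The log2 difference of -2.05 ± 0.55 was not called by edgeR (adjusted p = 0.125), which called 1.88% of genes, while DESeq2 called it (adjusted p = 0.0409). With cells thinned to 500 counts edgeR called it as well (-2.91, adjusted p = 0.0139). Vehicle libraries 1 and 5 led for both genes, and 3 of 585 Thin Limb cells held 81.8% of the Atp6v1g3 and 28.7% of the Atp6v1c2 counts. Without cells that held 5 or more intercalated marker counts, the Atp6v1c2 difference was -1.50 (adjusted p = 0.202 by edgeR).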

How the data were processed

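Single-cell mRNA of mouse kidneys was measured in 3 furosemide and 3 vehicle libraries. The deposited table holds whole-number counts per cell for a panel of 456 genes, without normalization. Bowtie2 2.2.9 is a tool named per the submitters' processing notes, without its role. The genome build, the counting step and what 1 count stands for are not given in the sources used here. Per the file names, the authors took out a mixed cluster as well as doublets and made cell numbers equal. The names do not say between what, and no doublet caller was run here. Library, treatment and class come from the deposited annotation; library numbers could not be joined to the sample titles.

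Counts were summed per library and class (at least 10 cells in every library) and tested in 1 fit per class with edgeR 4.0.16 in R 4.3.3 (TMM, filterByExpr, robust glmQLFit and glmQLFTest), with Benjamini-Hochberg adjustment over all genes tested in the class and a call at an adjusted p under 0.05. Differences of effects between classes were interactions with the library as a block, in 5 pairs of classes (AIC minus BIC, AIC minus OMCD principal, DCT minus AIC, DCT minus TAL, DCT minus CNT), of which those not printed were not called. Shares of cells were compared by two-sided exact permutation tests, as deposited and with each cell thinned to 500 counts, which left 20871 cells. Class levels are descriptions, since the classes were made from these genes. The scripts were tested on simulated data. Alternatives were other size factors, no filter, DESeq2 1.42.0, limma 3.58.1 with voom, each library left out, thinned cells, equal cell numbers, no top 5% of totals and the second clustering. The named genes are the 6 members, the 3 genes most alike to each, and list genes that were called; 1 gene alike to Atp4a is not reported here. The members and lists were chosen with earlier results of these data known.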

Additional observations from a re-analysis of the deposited data

Results flagged for a closer look

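The effect of furosemide on Atp4a differed between DCT and TAL, by -1.36 on the log2 scale (DCT minus TAL). For Atp6v1c2 the same difference was 1.27. Both were flagged because the test of the difference itself passed. Their causes were not tested.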

How the results depend on the processing

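No paired analysis was possible because the library numbers could not be joined to the replicate numbers of the sample titles. Of the re-computed values, 567 kept their direction and their side of the threshold, or for counts stayed within 1.5 times, 14 reversed, 18 gained a call, 17 lost one and 23 moved. The causes of the moves below were not tested, apart from fewer libraries or counts where a setting leaves them out. With scaling to library size alone, the median log2 difference of all genes was -0.17 in AIC, -0.16 in CNT, -0.10 in DCT, 0.15 in DCT2, -0.11 in TAL and 0.24 in Thin Limb. With TMM the medians of these classes lay between -0.03 (AIC) and 0.02 (DCT2). The setting without cells of shared labels, DCT sub1 with DCT sub2, and the removal of cells with intercalated markers were chosen after seeing the data. Atp12a rests on 388 counts in furosemide and 188 in vehicle libraries.

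Atp6v1c2 in DCT lost its call with library size alone (0.88), thinned cells (0.80) and equal cell numbers (0.85), and ran between 0.85 and 1.13 with each library left out. Atp4a in the intercalated sum lost it without a low-count filter (0.85), with thinned cells (0.86), equal cell numbers (0.78) and no top 5% of totals (0.85), and ran between 0.81 and 0.96 with each library left out. Atp4a gained a call in TAL by DESeq2 (0.81) and thinned cells (0.94), and in DCT by DESeq2 (-0.51), thinned cells (-0.58) and DCT sub1 with DCT sub2 (-0.53). Atp6v1c2 in DCT minus TAL ran between 1.08 and 1.47 with each library left out.

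Pairs of gene and class called, 1 in the text, were 0 with library size alone, 2 without a filter, 8 by DESeq2, 4 with thinned cells, 3 with equal cell numbers, and 0 to 3 with each library left out. Genes called in DCT, 13 in the text, were 22 by DESeq2, 8 with equal cell numbers and 0 to 11 with each library left out. In the intercalated sum, 3 in the text, they were 22 by DESeq2, 1 with equal cell numbers, 1 without the top 5% and 0 to 2 with each library left out. In DCT minus TAL, 30 in the text, they were 17 to 43.

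Signs turned where the difference was near 0. Atp4a in CNT was 0.0093 with relative log expression size factors, 0.0098 by DESeq2, 0.047 without the top 5%, 0.011 without cells with intercalated markers and -0.076 to 0.056 with each library left out. Atp6v1c2 in DCT2 was -0.18 with equal cell numbers and -0.10 to 0.19 with each library left out, and in BIC -0.027 with library size alone, -0.0013 with thinned cells and -0.0072 to 0.10 with each library left out. Rhbg in AIC was -0.17 to 0.026 with each library left out. The share of AIC cells without TAL cells in the total differed by -0.0043 percentage points.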
